A study of Mus musculus with 56 samples.

Results

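The 8 libraries described here are whole adrenal glands of female Znrf3 conditional knockout (cKO) mice, 4 taken at 9 weeks of age and 4 at 6 weeks. They were chosen by their labels of sex, genotype and age, and are 8 of the 56 libraries of the series. The series set glands lacking Znrf3 in steroid-producing cells against glands of littermates, in both sexes and at several ages, to ask what accompanies the turn of an enlarged gland to regression. All mice were C57BL/6J, and each group of 4 came from independent mice. The cKO mice were SF1-Cre+; Znrf3 Fx/Fx. Their Cre is driven by SF1 (Nr5a1), so floxed Znrf3 is removed in SF1-expressing cells, chiefly those of the cortex, while cells without SF1 keep the gene. The female controls at 9 and 6 weeks, 4 each, are labelled SF1-Cre negative, and their Znrf3 alleles are not stated in the labels. Female cKO glands at 12 weeks and male cKO glands at 9 and 6 weeks, 4 each, are used where a result is followed into other animals.

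ZNRF3 and its relative RNF43 are membrane ubiquitin ligases that take Wnt receptors off the cell surface, and R-spondins, made in the adrenal capsule, hold these ligases in check. In the adrenal cortex Wnt signalling is strongest in the outer zone, the zona glomerulosa, which makes aldosterone, while the zona fasciculata beneath it makes glucocorticoids. In mice the innermost cortex is the X-zone, which arises before birth and is lost at puberty in males and later in females.

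Depth was similar at both ages, with total counts of 37.7M to 41.7M per library at 9 weeks and 40.4M to 51.6M at 6 weeks. All levels below are CPM, counts scaled to a common library total, after scaling by the trimmed mean of M-values (TMM). The glands carried the transcripts of the cortex at both ages, with Cyp11b1, which completes corticosterone synthesis, averaging 8720 ± 773 CPM at 9 weeks and 8430 ± 707 CPM at 6 weeks (SD, n = 4 each). Znrf3 itself stood at 68, 67.1, 85.6 and 76.9 CPM at 9 weeks, against 101, 82.5, 67.9 and 55.6 CPM at 6 weeks in cKO glands, with overlap, and averaged 35.8 ± 3.21 CPM at 9 weeks and 36.6 ± 2.85 CPM at 6 weeks in controls (SD, n = 4 each). A count over the whole gene does not test whether the floxed part was removed. Albumin (Alb), made by the liver, stood at 14.4, 11, 0.0536 and 0.0814 CPM at 9 weeks, against 0.114, 0.235, 5.64 and 0.132 CPM at 6 weeks, so 3 of the 8 libraries carried some liver transcript. Replicate 4 at 6 weeks stood apart in stress-responsive and macrophage genes, as given beside those results.

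Between these ages the cKO gland lost transcripts of dividing cells and gained those of single genes of the X-zone, the outer cortex and immunoglobulin chains. Of 18645 genes tested with edgeR's quasi-likelihood test, 149 were higher at 9 weeks (0.799%) and 178 were lower (0.955%) at a Benjamini-Hochberg adjusted p under 0.05. At an unadjusted p under 0.05, 7.4% of all genes were higher and 6.74% were lower. The fold was at least 2 for 62 of the higher and 77 of the lower genes. The libraries of the ages did not overlap for 130 of the higher and 160 of the lower genes, against 6.32% of all genes tested. Calls and overlap come from the same libraries, so this is not a separate check. These counts depend on the spread estimate and on single libraries. With only the 8 cKO libraries in the fit, 19 genes were higher and 1 was lower, and with DESeq2 383 were higher and 335 lower. Without replicate 2 at 9 weeks 65 were higher and 38 lower, and without replicate 4 at 9 weeks 51 and 16. Without replicate 3 at 6 weeks 47 were higher and 10 lower, and without replicate 4 at 6 weeks 96 and 100. Every called gene that was measured in those fits kept its sign.

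The genes that fell included much of the cell cycle. Of 28 genes of the cell cycle and DNA replication list, 15 fell and 0 rose, with a median log2 fold change of -1.14 against 0.0 over all genes. At an unadjusted p under 0.05, 27 were lower and 1, Ccnd1, was higher. The summed level of the list was 673, 480, 602 and 459 CPM in the glands at 9 weeks, against 738, 745, 1060 and 862 CPM at 6 weeks. Every 9-week gland lay below every 6-week gland, and replicates 3 and 4 were the highest of the 6-week glands. The genes that fell span the cycle from entry to division. They are E2f1 and Ccne1 (entry into S phase), Mcm2, Mcm3 and Mcm5 (the replicative helicase), Pcna, Tyms and Rrm2 (DNA synthesis and nucleotide supply), and Foxm1 and Ccnb2 (the mitotic programme). Top2a, Kif11, Cenpa and Aurkb act in chromosome structure and segregation, and Lmnb1 builds the nuclear lamina. Pcna, Mcm3, Kif11, Foxm1, Ccnb2, Ccne1, Lmnb1, Top2a and Ccnd1 are named to complete these counts, after their values were seen.

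E2f1, a transcription factor that switches on S phase genes (chromosome 2, 154559407 to 154569892, GRCm38), stood at 16.6, 14.2, 17.1 and 13.7 CPM at 9 weeks, against 19.4, 21.6, 28.6 and 24.8 CPM at 6 weeks. The ages did not overlap, and E2f1 fell by 0.61 ± 0.11 on the log2 scale (SE, adjusted p = 0.00895). Rrm2, the regulated subunit of ribonucleotide reductase (chromosome 12, 24708241 to 24714146), stood at 14, 7.07, 11.8 and 4.8 CPM at 9 weeks, against 20.4, 17.4, 38.6 and 30.9 CPM at 6 weeks. It was 2.84-fold lower at 9 weeks without overlap (adjusted p = 0.0222), and replicates 3 and 4 were the highest of the 6-week glands. Mcm5 stood at 24.1, 16.9, 24.6 and 16.4 CPM at 9 weeks, against 34.9, 34.2, 48.4 and 27.8 CPM at 6 weeks, and fell by 0.82 ± 0.16 on the log2 scale (SE, adjusted p = 0.0172). For E2f1, Rrm2 and Mcm5 alike, replicates 2 and 4 were the lowest of the 9-week glands. Mki67, which encodes the proliferation marker Ki-67, stood at 30.1, 15.9, 26 and 9.25 CPM at 9 weeks, against 36, 36.5, 76.2 and 66.3 CPM at 6 weeks. The ages did not overlap, but its log2 fold change of -1.40 ± 0.38 (SE) missed the threshold (adjusted p = 0.0562).

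**Figure D1:**
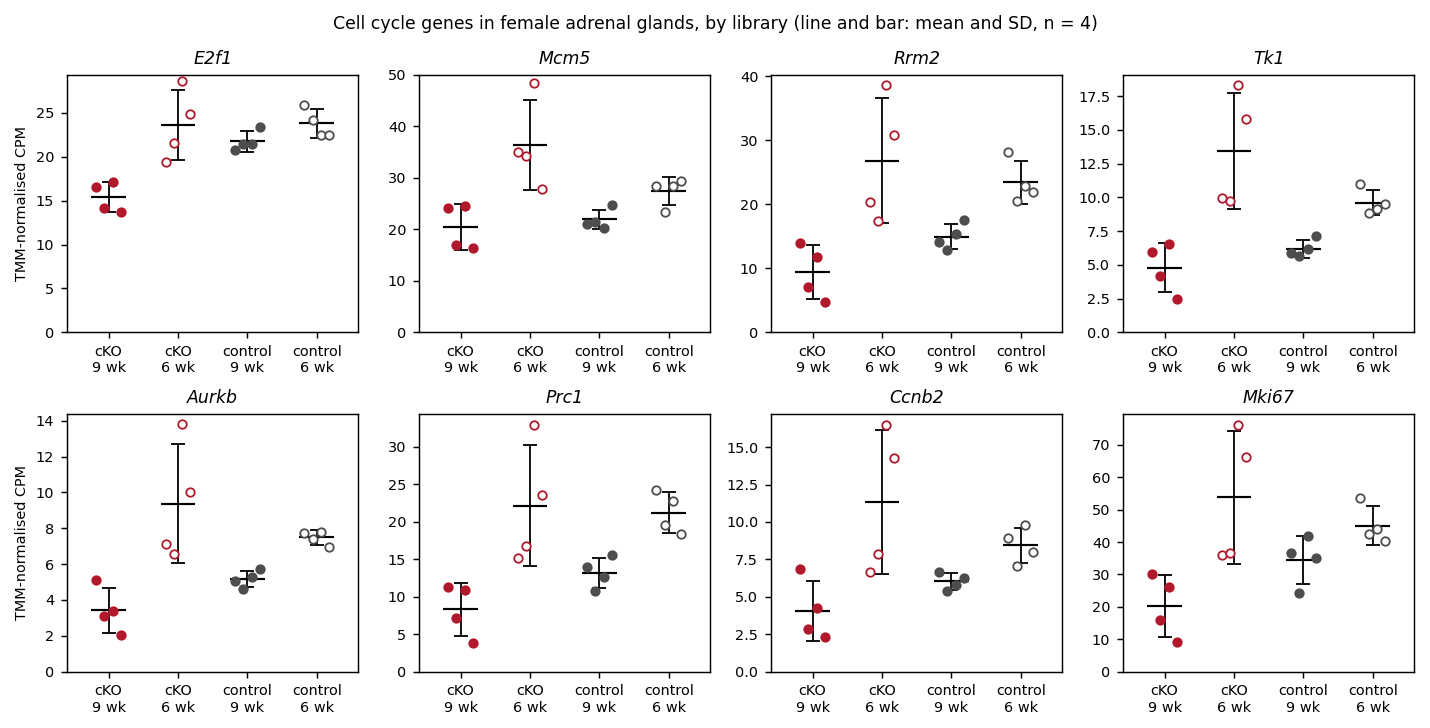
TMM-scaled CPM of 8 cell cycle genes in each library of the female cKO and control glands at 9 and 6 weeks (points are libraries, line and bar are the mean and SD, n = 4 per group). The 9-week cKO glands lie below the 6-week cKO glands in all panels except that of Ccnb2, where 1 library at 9 weeks (6.85 CPM) exceeds the lowest at 6 weeks (6.66 CPM). Mki67 missed the threshold.

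Among genes that fell without overlap and whose mean log2 CPM reached 1, the 10 with the largest change were Rrm2, Kif18b, Tk1, Aurkb, Pclaf, Mxd3, Spc25, Prc1, Gm14226 and E2f8. Tk1 salvages thymidine, Pclaf binds PCNA, E2f8 is an atypical E2F factor, Mxd3 belongs to the Myc and Max network and Gm14226 is a predicted gene. Kif18b, Spc25, Prc1 and Aurkb act on spindle microtubules and kinetochores. The folds ran from 2.84-fold lower for Rrm2 to 2.65-fold lower for E2f8, with adjusted p from 0.0151 for Tk1 to 0.0499 for E2f8. Tk1 stood at 5.97, 4.18, 6.54 and 2.5 CPM at 9 weeks, against 9.93, 9.7, 18.3 and 15.8 CPM at 6 weeks. Prc1, which bundles microtubules at the midzone of a dividing cell, stood at 11.3, 7.14, 10.9 and 3.85 CPM at 9 weeks, against 15.2, 16.8, 32.9 and 23.5 CPM at 6 weeks. In both genes replicate 4 was the lowest of the 9-week glands and replicate 3 the highest of the 6-week glands.

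How many cell cycle genes passed the threshold turned on few glands. Of the 28 listed genes, 24 fell with DESeq2, while 0 did with only the 8 cKO libraries in the fit. The count was 2 without replicate 2 at 9 weeks, 1 without replicate 4 at 9 weeks and 1 without replicate 3 at 6 weeks. The list's median log2 fold change lay between -0.92 and -1.31 over all settings tried. E2f1 was called in 13 of the 14 other fits and Rrm2 in 10. In bulk tissue, fewer cells of a type and less RNA per cell cannot be told apart.

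Promoters were read from RefSeq (GRCm38.p6, 250 bases before to 50 after each start) because many late cell cycle genes are known to be controlled through a CCAAT box and a cell cycle homology region, TTTGAA. Those of Ccnb2 (chr9:70421505-70421804, minus strand), Kif11 (chr19:37376132-37376431, plus strand), Prc1 (chr7:80294201-80294500, plus strand) and Top2a (chr11:99024140-99024439, minus strand) are shown because these genes fell and each holds both sets of letters. They run 5′ to 3′ along the gene, and capitals mark CCAAT or its complement ATTGG, and TTTGAA or its complement TTCAAA.
Ccnb2: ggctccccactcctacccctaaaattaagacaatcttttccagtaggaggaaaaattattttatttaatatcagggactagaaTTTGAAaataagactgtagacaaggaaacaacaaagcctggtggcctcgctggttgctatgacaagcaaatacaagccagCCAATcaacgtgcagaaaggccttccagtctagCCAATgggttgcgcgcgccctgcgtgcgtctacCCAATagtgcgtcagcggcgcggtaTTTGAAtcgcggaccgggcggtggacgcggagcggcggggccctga
Kif11: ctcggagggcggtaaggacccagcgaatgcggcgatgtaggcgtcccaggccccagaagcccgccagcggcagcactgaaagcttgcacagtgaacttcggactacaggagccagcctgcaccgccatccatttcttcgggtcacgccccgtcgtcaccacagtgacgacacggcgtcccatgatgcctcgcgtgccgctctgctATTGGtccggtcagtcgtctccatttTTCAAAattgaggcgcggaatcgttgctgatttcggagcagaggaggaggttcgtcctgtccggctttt
Prc1: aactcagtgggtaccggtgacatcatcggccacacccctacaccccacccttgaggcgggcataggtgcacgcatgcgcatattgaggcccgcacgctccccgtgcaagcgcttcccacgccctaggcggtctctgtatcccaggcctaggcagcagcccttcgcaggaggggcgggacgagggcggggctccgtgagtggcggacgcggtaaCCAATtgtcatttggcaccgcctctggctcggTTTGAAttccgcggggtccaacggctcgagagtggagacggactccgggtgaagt
Top2a: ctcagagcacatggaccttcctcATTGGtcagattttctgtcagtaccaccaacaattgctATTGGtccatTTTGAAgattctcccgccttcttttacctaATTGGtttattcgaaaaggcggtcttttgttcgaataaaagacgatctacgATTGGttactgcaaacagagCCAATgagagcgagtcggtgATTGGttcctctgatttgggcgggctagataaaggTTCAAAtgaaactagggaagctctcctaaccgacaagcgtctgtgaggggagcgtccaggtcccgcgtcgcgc
A promoter was matched by symbol for 138 of the 178 genes that fell, 100 of the 149 that rose and 12553 of the 18645 tested. On either strand, CCAAT was found for 55.8% of the promoters of genes that fell, 47.0% of those that rose and 42.4% of all. TTTGAA was found for 33.3% of genes that fell, 22% of those that rose and 14.8% of all. GCGGGAA, the core of an E2F site, was found for 26.1% of genes that fell, 6.0% of those that rose and 9.08% of all. Of the 22 cell cycle list genes with a promoter, 81.8% held CCAAT, 45.5% TTTGAA and 9.09% GCGGGAA, the last close to the share of all promoters. These are letters in a window, not measured binding.

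Control glands had lower cell cycle levels at 9 weeks too, with a smaller median change. The list's median log2 fold change in controls was -0.39, against 0.004 over all genes, and its summed level there was 638 to 803 CPM at 9 weeks, against 770 to 872 CPM at 6 weeks. Between the control ages edgeR called 0 of 18645 genes (0.0%), with 966 at an unadjusted p under 0.05, and DESeq2 called 26. Rrm2 averaged 15 ± 1.99 CPM at 9 weeks and 23.4 ± 3.3 CPM at 6 weeks in controls (SD, n = 4 each), a log2 fold change of -0.64. The interaction contrast, which tests whether the age change differs between cKO and control glands, called 12 genes (0.0644%) and 0 of the 28 cell cycle genes, and DESeq2 called 93 genes in all. For Rrm2 the change in cKO glands minus that in controls was -0.86 on the log2 scale (adjusted p = 0.775), and for E2f1 it was -0.48 (adjusted p = 0.391). Of the genes that fell in cKO glands, 162 of 178 had negative fold changes in controls (91.0%), with a median log2 fold change of -0.87 in cKO glands and -0.25 in controls. Among all genes with negative fold changes in cKO glands that share was 55.5%. Of the genes that rose, 98 of 149 had positive fold changes in controls (65.8%, against 58.3% of all genes with positive fold changes), with a median of 0.91 in cKO glands and 0.08 in controls.

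At 12 weeks the cell cycle level of cKO glands was again below that at 6 weeks. The summed level of the list was 738 to 1060 CPM at 6 weeks, 459 to 673 CPM at 9 weeks and 384 to 643 CPM at 12 weeks. In controls it was also lower at the later ages, at 770 to 872, 638 to 803 and 637 to 777 CPM. Rrm2 averaged 26.8 ± 9.75, 9.43 ± 4.23 and 8.74 ± 3.5 CPM at these ages in cKO glands (SD, n = 4 each). Between 12 and 9 weeks edgeR called 0 genes in cKO glands (0.0%), with 1871 at an unadjusted p under 0.05, and DESeq2 called 64. That comparison shares its 9-week glands with the one described here. The 12-week mean lay nearer the 9-week than the 6-week mean for 169 of the 178 genes that fell (94.9%) and 129 of the 149 that rose (86.6%), against 62.2% and 62.9% of all genes with fold changes of those signs.

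In male cKO glands at the same ages, which come from other animals, edgeR called 130 of 17086 genes (0.761%), 70 higher and 60 lower at 9 weeks. Of the genes that fell in females, 140 of the 173 measured in males were negative there (80.9%, against 53.9% of all genes negative in females), and 1 was called. Of those that rose in females, 125 of 142 were positive in males (88.0%, against 62.2% of all genes positive in females), and 11 were called. The male count ranged from 2 to 1345 when each of the 8 male libraries was left out in turn, the highest without replicate 1 at 9 weeks, and was 0 when only those 8 were fitted. The median log2 fold change of the cell cycle list was -0.47 in males, against 0.03 over all genes. The male 6-week glands were uneven for some of these genes. Mki67 averaged 11.8 ± 1.51 CPM at 9 weeks and 18.2 ± 13.4 CPM at 6 weeks in males, and Prc1 3.55 ± 0.411 and 8.55 ± 7.91 CPM (SD, n = 4 each). E2f1 was less uneven, at 11.7 ± 1.89 and 15.8 ± 3.58 CPM.

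**Figure D2:**
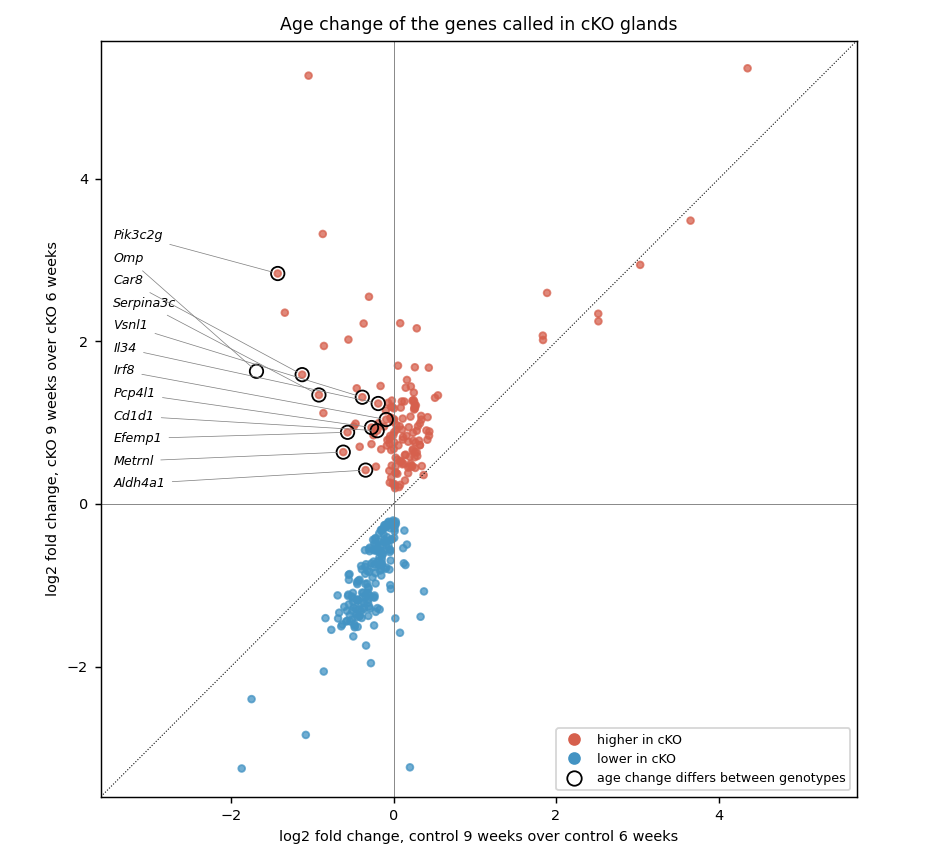
Log2 fold change at 9 over 6 weeks in cKO glands (vertical axis) against that in controls (horizontal axis) for the 327 genes called in cKO glands, with rings on the 12 genes whose age change differed between genotypes. Omp, 1 of these 12, was not called in cKO glands. Most genes that fell in cKO glands also lie left of 0, and all 12 ringed genes lie left of 0 on the horizontal axis and above 0 on the vertical axis.

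Genes of the X-zone led the rises among genes called without overlap whose mean log2 CPM over all 24 female libraries reached 1. Akr1c18, a hydroxysteroid dehydrogenase that inactivates progesterone (chromosome 13, 4132615 to 4150654), stood at 75.2, 165, 373 and 165 CPM at 9 weeks, against 31.6, 31.6, 5.08 and 9.22 CPM at 6 weeks. The ages did not overlap, and the gene was 10-fold higher (log2 fold change 3.32 ± 0.75 SE, adjusted p = 0.028). Pik3c2g, a class II phosphoinositide 3-kinase expressed in the X-zone (chromosome 6, 139587221 to 139969284), stood at 27.6, 49.6, 14.2 and 45.6 CPM at 9 weeks, against 11.9, 3.01, 2.01 and 2.32 CPM at 6 weeks. It did not overlap either and was 7.14-fold higher (adjusted p = 0.0103). In controls the means of both were lower at 9 weeks, with Akr1c18 at 977 ± 423 CPM at 9 weeks and 1790 ± 943 CPM at 6 weeks and Pik3c2g at 83.3 ± 31.2 and 224 ± 57.9 CPM (SD, n = 4 each). The age change in cKO glands minus that in controls was 4.26 on the log2 scale for Pik3c2g (adjusted p = 0.0128). For Akr1c18 it was 4.19, which missed the threshold (adjusted p = 0.157).

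At 12 weeks cKO glands held 76.6 ± 66 CPM of Akr1c18 and 8.62 ± 4.06 CPM of Pik3c2g (SD, n = 4). Both means lay nearer the 6-week than the 9-week mean, unlike those of most genes that rose. Neither was called between 12 and 9 weeks, where edgeR called 0 genes in all. Of the 4 genes of the X-zone list 2 rose and 0 fell, and Tbx3 and Abcb1b had log2 fold changes of 0.11 and 0.12 (adjusted p = 0.765 and 0.855). The count was 1 on leaving out replicate 2, 3 or 4 at 9 weeks, or replicate 3 or 4 at 6 weeks, and 0 with only the 8 cKO libraries in the fit. Akr1c18 has close copies in the genome, and the sources used here do not say how reads were split among them.

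The other rises among the 10 largest were Kng2, Ugt1a1, Jchain, Igha, Gm15895, Fetub, Igkc and Gsta3. Fetub, the secreted protease inhibitor fetuin-B, stood at 20.1, 26.3, 30.2 and 40.0 CPM at 9 weeks, against 8.88, 6.98, 5.3 and 7.5 CPM at 6 weeks, without overlap (4.06-fold, adjusted p = 0.0181). Gsta3, a glutathione transferase, stood at 5.12, 5.78, 8.52 and 11 CPM at 9 weeks, against 2.82, 1.82, 1.57 and 1.68 CPM at 6 weeks (3.85-fold, adjusted p = 0.0268). Fetub and Gsta3 were highest in replicates 3 and 4 at 9 weeks, which held the least albumin of the 8 libraries. Whether liver transcript had a part in any of the rises of this paragraph was not tested. Control means exceeded those of cKO glands, at 48.6 ± 15.1 CPM at 9 weeks and 71.3 ± 23.3 CPM at 6 weeks for Fetub and at 28.9 ± 10.5 and 52.3 ± 17.6 CPM for Gsta3 (SD, n = 4 each). Ugt1a1, a glucuronosyltransferase that shares exons with its neighbours, averaged 2.36 ± 1.03 and 0.457 ± 0.233 CPM at 9 and 6 weeks, and Kng2, a kininogen, 2.74 ± 1.3 and 0.462 ± 0.24 CPM (SD, n = 4 each, adjusted p = 0.041 and 0.0399). Gm15895, a predicted gene, was 4.66-fold higher (adjusted p = 0.025). The difference in age change between genotypes missed the threshold for Fetub, Gsta3, Ugt1a1 and Kng2, with adjusted p of 0.0965, 0.0871, 0.0845 and 0.338.

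**Figure D3:**
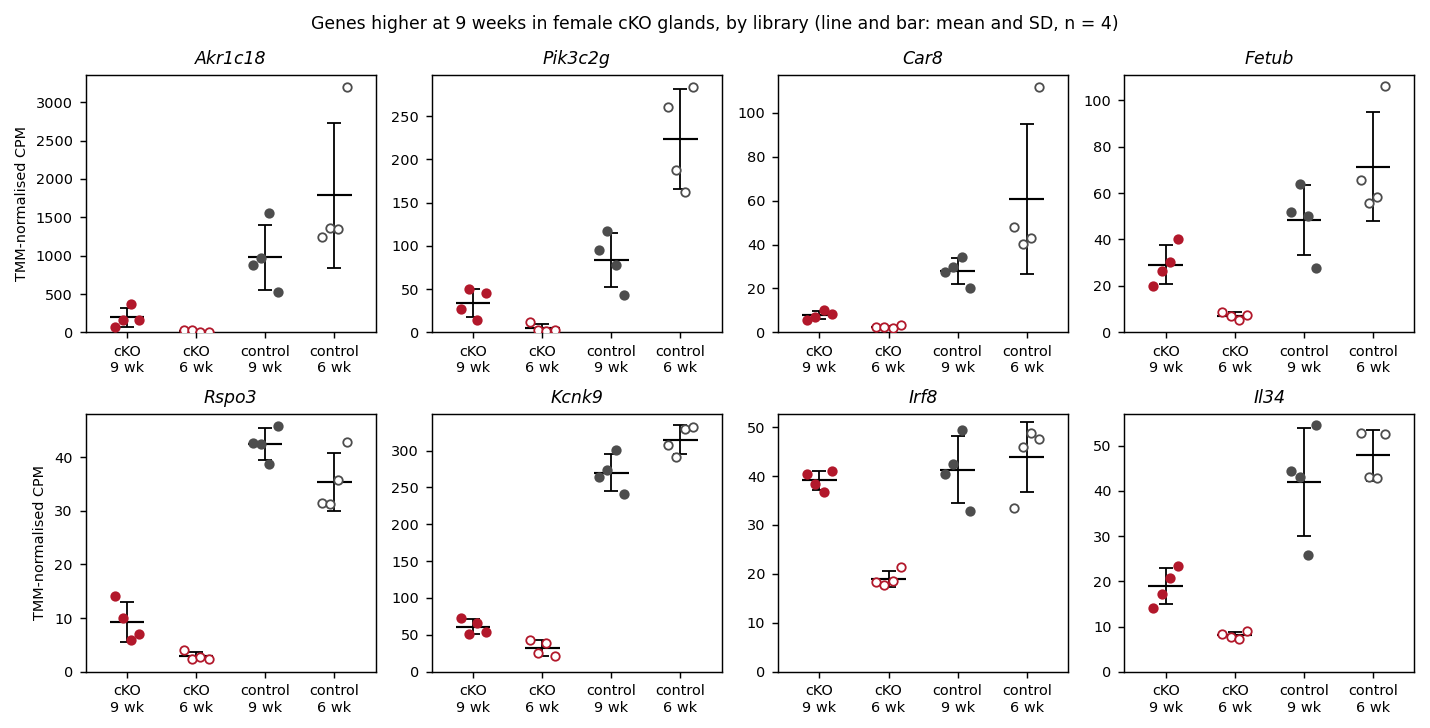
TMM-scaled CPM of 8 genes that rose, in each library of the female cKO and control glands at 9 and 6 weeks (points are libraries, line and bar are the mean and SD, n = 4 per group). In each panel the 4 cKO glands at 9 weeks lie above the 4 at 6 weeks, and for all but Irf8 the 9-week mean of cKO glands is below that of controls by more than the SD of the cKO glands.

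In the outer cortex, single genes of the zona glomerulosa and of signalling at the capsule rose. Of 10 zona glomerulosa genes 2 rose, 0 fell, and 6 were higher at an unadjusted p under 0.05, with a median log2 fold change of 0.51 in cKO glands and 0.08 in controls. The list's summed level in cKO glands was 2850 to 3220 CPM at 9 weeks, against 2860 to 3300 CPM at 6 weeks, with overlap. Kcnk9, a potassium channel of glomerulosa cells, stood at 72.3, 51.2, 66.3 and 54.3 CPM at 9 weeks, against 43.3, 25.2, 38.5 and 20.6 CPM at 6 weeks (log2 fold change 0.94 ± 0.18 SE, adjusted p = 0.0163). Agtr1b, an angiotensin II receptor, stood at 4.34, 2.89, 3.97 and 4.12 CPM at 9 weeks, against 1.97, 1.47, 2.18 and 1.3 CPM at 6 weeks (1.15 ± 0.21 SE, adjusted p = 0.0131). Neither gene overlapped between ages, and controls held 270 ± 25.1 CPM at 9 weeks and 315 ± 19.4 CPM at 6 weeks for Kcnk9 and 19.4 ± 4.23 and 20.7 ± 4.52 CPM for Agtr1b (SD, n = 4 each). Cyp11b2, aldosterone synthase, stood at 57.5, 40.9, 189 and 53.2 CPM at 9 weeks, against 42.7, 35.3, 36 and 18.6 CPM at 6 weeks. Its reads may be shared with the close copy Cyp11b1. The groups overlap, replicate 3 at 9 weeks stands apart, and the log2 fold change of 1.36 missed the threshold (adjusted p = 0.054). With only the 8 cKO libraries in the fit, 0 of the 10 genes rose and the list's median was 0.27, and without replicate 1 at 9 weeks 3 rose with a median of 0.26.

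Rspo3, the R-spondin of the capsule (chromosome 10, 29452416 to 29535867), stood at 14.2, 10.1, 5.89 and 6.97 CPM at 9 weeks, against 3.98, 2.45, 2.83 and 2.36 CPM at 6 weeks. The ages did not overlap, and Rspo3 was 3.21-fold higher (log2 fold change 1.68 ± 0.29 SE, adjusted p = 0.00956), with 42.4 ± 2.95 CPM at 9 weeks and 35.4 ± 5.41 CPM at 6 weeks in controls (SD, n = 4 each). It also rose in male cKO glands, by 1.07 on the log2 scale (adjusted p = 0.0261). Rspo3 was the only gene called of 17 tested on the list of Wnt and beta-catenin targets, of which 7 were higher and 0 lower at an unadjusted p under 0.05. Axin2, a feedback inhibitor and the usual readout of the pathway, averaged 52.8 ± 6.13 CPM at 9 weeks and 55.1 ± 12.9 CPM at 6 weeks (SD, n = 4 each, adjusted p = 0.901). Rnf43 averaged 4.74 ± 0.914 and 7.98 ± 6.75 CPM, Lgr5, an R-spondin receptor, 3.17 ± 0.852 and 2.03 ± 0.549 CPM and Notum, a secreted Wnt deacylase, 2.29 ± 0.743 and 1.41 ± 0.385 CPM at 9 and 6 weeks (SD, n = 4 each), and did not pass (adjusted p = 0.493, 0.242 and 0.171). Shh, the Hedgehog ligand of subcapsular cortical cells, stood at 22.1, 16, 11.7 and 12.8 CPM at 9 weeks, against 12.1, 6.01, 8.62 and 4.9 CPM at 6 weeks. The highest 6-week gland lies above the lowest 9-week gland, and Shh was 1.99-fold higher (adjusted p = 0.0331). Of 11 Hedgehog genes it was the only one called. Its call was lost on leaving out replicate 1, 2 or 4 at 9 weeks, or replicate 2, 3 or 4 at 6 weeks, and in the fit of only the 8 cKO libraries. The target genes Gli1 and Hhip had log2 fold changes of 0.54 and 0.49 (adjusted p = 0.461 and 0.456).

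For 12 genes the age change itself differed between genotypes, and for all 12 it was the more positive in cKO glands (84 more positive and 9 more negative with DESeq2). They are Pik3c2g, Omp, Car8, Serpina3c, Vsnl1 and Efemp1, and, named to complete the count after their values were seen, Irf8, Il34, Pcp4l1, Cd1d1, Aldh4a1 and Metrnl. Irf8, a transcription factor of mononuclear phagocytes and dendritic cells (chromosome 8, 120736358 to 120756694), stood at 40.4, 38.4, 36.8 and 41 CPM at 9 weeks, against 18.3, 17.8, 18.6 and 21.4 CPM at 6 weeks. It was 2.06-fold higher (log2 fold change 1.04 ± 0.13 SE) with the smallest adjusted p of all genes (0.00103), and controls held 41.3 ± 6.87 CPM at 9 weeks and 43.9 ± 7.11 CPM at 6 weeks (SD, n = 4 each). Il34, a ligand of the macrophage receptor CSF1R, stood at 14.2, 17.3, 20.7 and 23.5 CPM at 9 weeks, against 8.24, 7.69, 7.24 and 8.94 CPM at 6 weeks (2.36-fold, adjusted p = 0.00386). Pcp4l1, named for its likeness to Pcp4, stood at 13.5, 12.3, 13 and 12.3 CPM at 9 weeks, against 7.87, 6.5, 6.42 and 5.87 CPM at 6 weeks (1.92-fold, adjusted p = 0.00386). None of these 3 overlapped between ages, and they are the 3 of 50 called genes among those set out individually that were called in all 14 other fits. The number of genes called by the interaction was 5 or 6 without replicate 3 or 4 of the cKO glands at 9 weeks, replicate 2 or 3 of those at 6 weeks, replicate 1, 2 or 4 of the controls at 9 weeks, or replicate 1, 3 or 4 of those at 6 weeks. It was 20 without replicate 2 of the controls at 6 weeks, and 42 when the 12-week glands were left out of the fit.

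For the rest of this set, control means were lower at 9 weeks while those of cKO glands were higher. Car8, related to carbonic anhydrases, averaged 7.79 ± 1.87 CPM at 9 weeks and 2.58 ± 0.539 CPM at 6 weeks in cKO glands, against 28 ± 6.05 and 61 ± 34.5 CPM in controls (SD, n = 4 each). Vsnl1, a neuronal calcium sensor, averaged 13.8 ± 2.57 and 5.57 ± 1.95 CPM in cKO glands at 9 and 6 weeks, against 51.2 ± 9.22 and 66.9 ± 12.8 CPM in controls. Efemp1, the matrix protein fibulin-3, averaged 18.3 ± 4.24 and 9.94 ± 2.44 CPM in cKO glands, against 51 ± 1.24 and 75.4 ± 15.6 CPM in controls. In each of these genes the cKO glands were below controls at both ages. Cd1d1, which presents lipid antigens, averaged 365 ± 90.9 and 196 ± 17.4 CPM in cKO glands, against 575 ± 41.9 and 661 ± 62.1 CPM in controls (SD, n = 4 each). Serpina3c, of a family of near-identical copies whose reads may be shared, averaged 11.5 ± 5.1 and 4.54 ± 1.07 CPM in cKO glands, against 6.39 ± 1.2 and 12.1 ± 2.66 CPM in controls. Metrnl, a secreted factor, averaged 9.18 ± 1.25 and 5.89 ± 1.46 CPM in cKO glands, against 9.99 ± 0.773 and 15.3 ± 1.64 CPM in controls. Aldh4a1, a mitochondrial enzyme of proline breakdown, stood at 139, 131, 166 and 129 CPM at 9 weeks, against 96.8, 112, 108 and 106 CPM at 6 weeks in cKO glands, without overlap (adjusted p = 0.0172). Prodh, the enzyme before it in that pathway and chosen after its values were seen, stood at 34.1, 43.6, 45.7 and 40.0 CPM at 9 weeks, against 19.8, 16.7, 21.4 and 24.5 CPM at 6 weeks, 1.98-fold higher (adjusted p = 0.0218), with an interaction that missed the threshold (adjusted p = 0.0724). Omp averaged 1.02 ± 0.424 and 0.325 ± 0.145 CPM in cKO glands and was not called there (adjusted p = 0.0748).

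Among immune genes, some immunoglobulin transcripts rose, and their means were higher at 9 weeks in controls too. Igkc, Jchain and Igha, which encode a light chain, the joining chain and the heavy chain of IgA, were 4.05-fold, 5.07-fold and 4.75-fold higher (adjusted p = 0.0131, 0.0151 and 0.0383). Igkc stood at 23.9, 17.5, 13 and 23.9 CPM at 9 weeks, against 4.94, 4.6, 3.54 and 6.25 CPM at 6 weeks in cKO glands, without overlap, and averaged 11.8 ± 2.73 CPM at 9 weeks and 3.3 ± 1.31 CPM at 6 weeks in controls (SD, n = 4 each). The change in cKO glands minus that in controls was 0.18 for Igkc, -0.18 for Jchain and -0.27 for Igha on the log2 scale (adjusted p = 0.981, 0.983 and 0.979). In male cKO glands these genes rose as well, by 3.16, 2.91 and 3.17 on the log2 scale (adjusted p = 0.00152, 0.0108 and 0.0362). Igkc and Jchain were the 2 of 10 genes of B and plasma cells to rise, and 0 fell. Of the 10, 7 had positive and 3 negative fold changes, with a median log2 fold change of 0.14. Ighm and Mzb1 of that list, named after their values were seen, had log2 fold changes of -0.26 and -0.0084 (adjusted p = 0.703 and 0.995). The list's summed level was 167 to 193 CPM at 9 weeks, against 154 to 238 CPM at 6 weeks, with overlap. Igha was called in 6 of the 14 other fits. Without replicate 3 at 6 weeks 0 of the 10 passed. Reads of immunoglobulin segments can be split among related genes.

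Macrophage genes did not pass the test between these ages. Of 21, edgeR called 0 and DESeq2 called 0, with 4 higher at an unadjusted p under 0.05, and 21 had positive fold changes (median log2 fold change 0.27, against -0.05 in controls). That median was 0.17 without replicate 1 at 9 weeks, 0.17 and 0.14 without replicates 1 and 3 at 6 weeks, each left out alone, and 0.42 without replicate 4 at 6 weeks. Their summed level was 1020, 880, 614 and 937 CPM at 9 weeks, against 552, 640, 571 and 1040 CPM at 6 weeks, so that replicate 4 at 6 weeks stood above every 9-week gland. Csf1r, the receptor for IL-34 and CSF1, stood at 48.8, 40.9, 48.4 and 58.3 CPM at 9 weeks, against 41, 40.3, 36.6 and 35.8 CPM at 6 weeks, with a narrow overlap (adjusted p = 0.147). Gpnmb, a glycoprotein of lipid-laden macrophages, stood at 134, 121, 13.4 and 101 CPM at 9 weeks, against 26.2, 37.5, 46.1 and 317 CPM at 6 weeks, and Trem2, a lipid-sensing receptor, at 21.7, 19.5, 7.58 and 14 CPM at 9 weeks, against 7.44, 9.68, 8.52 and 24.6 CPM at 6 weeks. Cd68, a lysosomal protein of phagocytes, stood at 52.4, 46.4, 21.5 and 34.6 CPM at 9 weeks, against 17.7, 23.1, 26.1 and 79.7 CPM at 6 weeks. Replicate 4 at 6 weeks was the highest of all 8 glands for Gpnmb, Trem2 and Cd68, and replicate 3 was the lowest of the 9-week glands. Of 19 genes of lipid-laden macrophages and giant cells edgeR called 0 and DESeq2 called 1, with 1 higher at an unadjusted p under 0.05 and a median log2 fold change of 0.03. Without replicate 4 at 6 weeks edgeR called 1 of them higher, and the median was 0.83. The summed level of that list was 1370 to 3070 CPM at 6 weeks, 1530 to 2840 CPM at 9 weeks and 2610 to 4440 CPM at 12 weeks.

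Antigen presentation genes had a median log2 fold change of 0.48, with 7 of 17 higher at an unadjusted p under 0.05 and 0 called by edgeR or DESeq2. Without replicate 2 at 6 weeks the median was 0.74. Of the 17, 11 had positive and 6 negative fold changes. Their summed level was 2030 to 2770 CPM at 9 weeks, against 2020 to 3050 CPM at 6 weeks, with overlap. Cd74, the invariant chain of class II molecules, stood at 270, 300, 217 and 326 CPM at 9 weeks, against 160, 213, 172 and 154 CPM at 6 weeks, without overlap, and missed the threshold (adjusted p = 0.199). H2-Aa, a class II chain, averaged 96.7 ± 16.7 CPM at 9 weeks and 61.2 ± 9.99 CPM at 6 weeks (SD, n = 4 each, adjusted p = 0.225). All 16 genes of T and NK cells had positive fold changes (median log2 fold change 0.62, and 0.33 over those that passed a filter of CPM 5 in 4 libraries), with 3 at an unadjusted p under 0.05 and 0 called by edgeR or DESeq2. Kit, a receptor tyrosine kinase of mast cells and other lineages, averaged 32.9 ± 7.34 CPM at 9 weeks and 54.5 ± 9.94 CPM at 6 weeks in cKO glands, against 8.43 ± 0.992 and 8.78 ± 2.41 CPM in controls (SD, n = 4 each), and missed the threshold in cKO glands (adjusted p = 0.0792). Kit was the 1 gene with a negative fold change of 9 tested on the list of neutrophils and mast cells. The other 8 had positive fold changes, and the list's median log2 fold change was 1.5. Of 15 interferon-stimulated genes and 24 chemokines, cytokines and secreted senescence factors, edgeR and DESeq2 called 0, with 0 and 4 higher at an unadjusted p under 0.05.

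**Figure D4:**
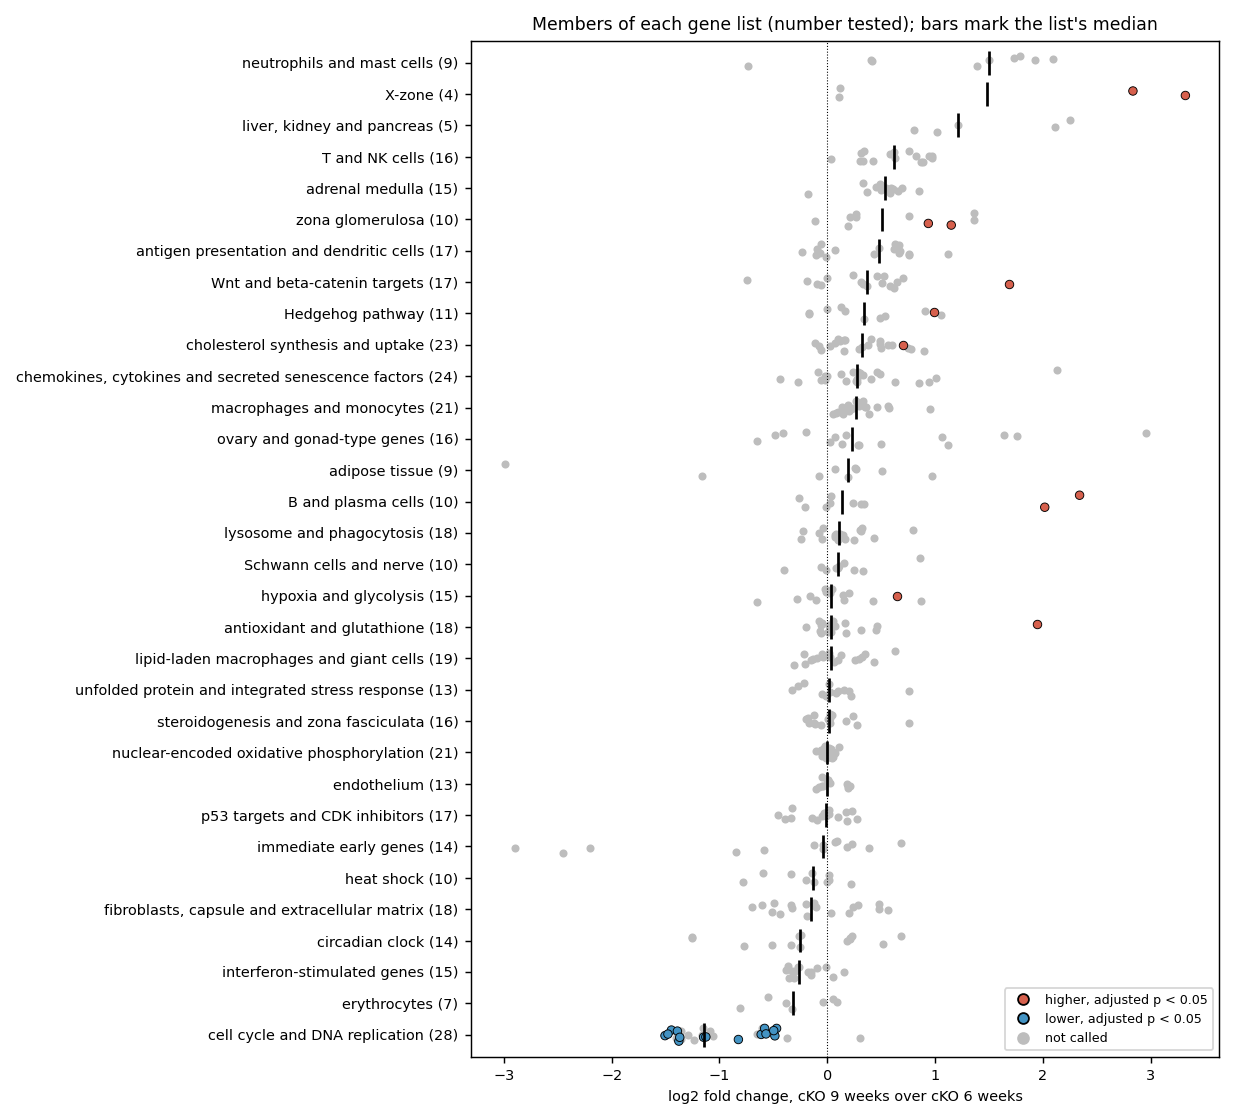
Log2 fold change at 9 over 6 weeks in cKO glands (horizontal axis) of every tested member of the 32 gene lists (rows). Coloured points passed an adjusted p under 0.05 and vertical bars mark the medians. The cell cycle list stands lowest, with 15 called members and a median of -1.14, and every other list holds at most 2 called members, all right of 0.

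No gene of the steroid pathway passed. Of 16 genes of steroidogenesis and the zona fasciculata edgeR and DESeq2 called 0, with 2 higher at an unadjusted p under 0.05, and the median log2 fold change was 0.02. Star, which brings cholesterol into mitochondria, averaged 7020 ± 756 CPM at 9 weeks and 7570 ± 1780 CPM at 6 weeks, and Cyp11a1, which cleaves its side chain, 4480 ± 331 and 5020 ± 421 CPM (SD, n = 4 each). Nr5a1, which encodes SF1, averaged 1880 ± 172 and 1950 ± 366 CPM at 9 and 6 weeks. Mgat4c, a glycosyltransferase gene, stood at 198, 459, 503 and 221 CPM at 9 weeks, against 670, 696, 370 and 539 CPM at 6 weeks, with overlap (adjusted p = 0.446). Of 23 genes of cholesterol synthesis and uptake, Mvd rose and 0 fell, and 9 were higher at an unadjusted p under 0.05. The list's median log2 fold change was 0.32 in cKO glands and -0.29 in controls. Mvd, which makes isopentenyl pyrophosphate, stood at 17.7, 14.2, 23.1 and 14.8 CPM at 9 weeks, against 13, 12.1, 9.37 and 8.39 CPM at 6 weeks, without overlap (log2 fold change 0.70, adjusted p = 0.0451). Its call was lost on leaving out any 9-week gland, or replicate 3 or 4 at 6 weeks, in the fit of only the 8 cKO libraries, and with the replicate number as a block. Fdps, which makes farnesyl pyrophosphate, averaged 89.1 ± 25.6 CPM at 9 weeks and 52.1 ± 10.1 CPM at 6 weeks in cKO glands, against 111 ± 16.1 and 159 ± 30.5 CPM in controls (SD, n = 4 each), and missed the threshold in cKO glands (adjusted p = 0.0862).

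Among inhibitors of the cell cycle none passed. Of 17 p53 targets and CDK inhibitors edgeR and DESeq2 called 0, with 1 lower at an unadjusted p under 0.05. Cdkn2a, which encodes p16 and ARF, stood at 6.64, 5.57, 8.39 and 5.26 CPM at 9 weeks, against 6.98, 6.81, 5.38 and 6.64 CPM at 6 weeks, with overlap (adjusted p = 0.998). Cdkn1a, which encodes p21, stood at 31.7, 28.9, 30.9 and 30.8 CPM at 9 weeks, against 25.8, 27.1, 39.9 and 67.5 CPM at 6 weeks, where replicate 4 at 6 weeks was highest (adjusted p = 0.412). Cdkn1c, which encodes p57, averaged 423 ± 43.2 CPM at 9 weeks and 582 ± 120 CPM at 6 weeks (SD, n = 4 each, adjusted p = 0.262). Replicate 4 at 6 weeks also held the highest levels of Nr4a2, an immediate early gene, at 2.88, 8.6, 5.04 and 3.83 CPM at 9 weeks, against 3.73, 3.58, 11.1 and 133 CPM at 6 weeks, and of Per1, a clock and stress-responsive gene, at 33.4, 44.7, 32.1 and 35.2 CPM at 9 weeks, against 66.4, 32.2, 87.5 and 162 CPM at 6 weeks. The part of these transcripts in the other results was not tested, and without that gland 10 of the 28 cell cycle genes fell.

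Genes of the medulla were far below control levels at both ages, and none passed with all glands in the fit. Their summed level was 647, 808, 309 and 804 CPM at 9 weeks, against 553, 292, 446 and 447 CPM at 6 weeks, with overlap, and 5090 to 6470 CPM at 9 weeks, against 4320 to 5670 CPM at 6 weeks in controls. Of 15, edgeR and DESeq2 called 0, while 9 were higher at an unadjusted p under 0.05 and the median log2 fold change was 0.54. Without replicate 3 at 9 weeks, the gland with the lowest sum of its age, edgeR called 3 of them higher, with a median of 0.76. Chga, the chromogranin of chromaffin granules, stood at 175, 208, 86.6 and 204 CPM at 9 weeks, against 147, 76.2, 123 and 117 CPM at 6 weeks, with overlap (adjusted p = 0.322). Scg2, another granin, averaged 95.6 ± 34 CPM at 9 weeks and 60.8 ± 13 CPM at 6 weeks, and Npy, a neuropeptide, 16.1 ± 6.35 and 8.97 ± 2.32 CPM (SD, n = 4 each, adjusted p = 0.196 and 0.232).

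Of the remaining lists, Ndrg1 was the only one of 15 hypoxia and glycolysis genes called (log2 fold change 0.64, adjusted p = 0.0292), and Gsta3 the only one of 18 antioxidant genes. The call of Ndrg1 was lost on leaving out replicate 1, 2 or 4 at 9 weeks, or replicate 2, 3 or 4 at 6 weeks, and in the fit of only the 8 cKO libraries. That of Gsta3 was lost on leaving out replicate 4 at 9 weeks, or replicate 2, 3 or 4 at 6 weeks. edgeR called 0 genes of the lists for endothelium, fibroblasts and matrix, Schwann cells, adipose tissue, erythrocytes, liver with kidney and pancreas, ovary and gonad-type genes, lysosome, and neutrophils with mast cells. It also called 0 of the immediate early, clock, unfolded protein, heat shock and oxidative phosphorylation genes. These 14 lists held from 0 to 7 genes each at an unadjusted p under 0.05. DESeq2 called 1 gene lower among the fibroblast genes, 1 lower among those of neutrophils and mast cells, and 0 in the other 12 lists. Of the 9 tested genes of neutrophils and mast cells, 8 had positive fold changes. Without replicate 2 at 6 weeks edgeR called 1 ovary and gonad-type gene lower.

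**Figure D5:**
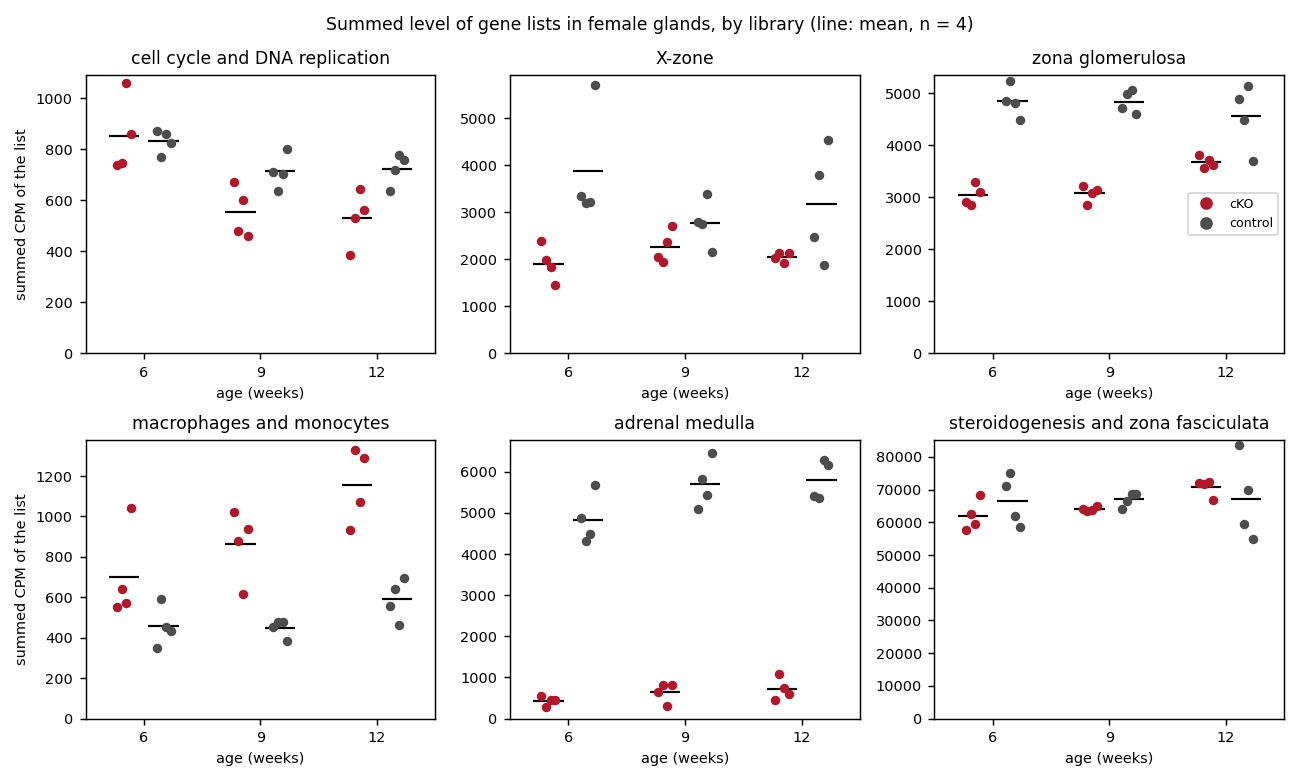
Summed CPM of 6 gene lists in each female library by age in weeks, with cKO glands left of controls (points are libraries, lines are means, n = 4 per group). The cell cycle sum of cKO glands is 738 to 1060 CPM at 6 weeks, 459 to 673 CPM at 9 weeks and 384 to 643 CPM at 12 weeks, and the medulla sum of cKO glands reaches at most 1090 CPM, against at least 4320 CPM in controls.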

How the data were processed

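RNA was measured in whole glands by poly(A)-selected, strand-specific sequencing, per the labels' protocols. The deposited values are raw read counts per gene, in 1 table for females and 1 for males. Per the submitters' processing notes, cutadapt 1.16, STAR 2.7.6a, RSEM 1.6.3, featureCounts and DESeq2 1.30.1 were used with GRCm38, with no role or order stated, and no featureCounts version given. The sources used here do not say how reads shared by copies of a gene were counted.

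From the counts as deposited, all 24 female libraries were fitted together in edgeR 4.0.16 (R 4.3.3, limma 3.58.1) with TMM scaling and the quasi-likelihood test, 1 coefficient per age and genotype. Genes were kept by filterByExpr at a minimum count of 10. Calls used a Benjamini-Hochberg adjusted p under 0.05 over all 18645 genes kept. Male glands were fitted separately. Symbols and coordinates came from GENCODE M21 for 55227 of 55487 identifiers. The scripts were tested on simulated data. Totals were 37.7M to 51.6M counts in the 8 cKO libraries, so counting error matters chiefly for the lowest genes. The p-values set a difference against the spread between animals, which for females was estimated over all 24 libraries. Levels compare a gene between libraries, not genes with each other, since CPM is not divided by length.

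Genes set out individually are a fixed panel, the 10 genes that rose most and the 10 that fell most of those called without overlap between ages at a mean log2 CPM of 1 or more, the 6 largest differences in age change in each direction among called genes, and up to 5 genes per list with the smallest p. Others are said to be chosen after their values were seen. The mean log2 CPM was taken over all 24 female libraries. The members and the 32 gene lists were chosen with earlier results of these data known. The alternatives were DESeq2 1.42.0, RLE scaling, no low-count filter, a filter of CPM 5 in 4 libraries, a replicate block, a fit of only the groups compared, and each library left out in turn. No 2 libraries agreed within sampling noise.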

Additional observations from a re-analysis of the deposited data

Results flagged for a closer look

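In 13 of 188 groups of 4 libraries, 1 library stood far from the other 3 for a named gene, by a rule that chance meets in about 1 in 20 groups. Replicate 4 at 6 weeks was the highest of its group for Cd68 (79.7 CPM), Trem2 (24.6 CPM), Gpnmb (317 CPM), Cd1d1 (222 CPM) and Nr4a2 (133 CPM), and the lowest for Dkk3 (10.5 CPM). Replicate 3 at 6 weeks was the highest for Kif18b (7.87 CPM), Kif11 (17.8 CPM) and Alb (5.64 CPM), and replicate 1 at 6 weeks for Pik3c2g (11.9 CPM). Replicate 3 at 9 weeks was the highest for Cyp11b2 (189 CPM) and the lowest for Notum (1.18 CPM), and replicate 2 at 9 weeks was the highest for Nr4a1 (167 CPM).

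In 12 genes the change between 6 and 9 weeks differed between cKO glands and controls by the interaction test. The change in cKO glands minus that in controls, on the log2 scale, was 4.26 for Pik3c2g, 3.32 for Omp, 2.72 for Car8, 2.26 for Serpina3c, 1.70 for Vsnl1 and 1.45 for Efemp1. It was 1.42 for Il34, 1.26 for Metrnl, 1.21 for Pcp4l1, 1.13 for Irf8, 1.10 for Cd1d1 and 0.76 for Aldh4a1.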

How the results depend on the processing

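For cKO glands at 9 against 6 weeks, 327 genes were called, and 718 with DESeq2 (383 higher, 335 lower) or 20 with only the 8 libraries fitted (19 higher, 1 lower). Leaving out 1 library gave 57 to 331 genes, 47 to 161 higher and 10 to 231 lower, the lowest total without replicate 3 at 6 weeks. Between control ages DESeq2 called 26, and leaving out 1 library 0 to 1. The age change differed between genotypes for 93 genes with DESeq2, 42 with only the groups compared, and 5 to 20 with 1 library left out. Between 12 and 9 weeks in cKO glands DESeq2 called 64, and leaving out 1 library 0 to 1. In males DESeq2 called 740, the fit of only the groups compared 0, and leaving out 1 library gave 2 to 1345. The cause of these changes was not tested. RLE scaling, no low-count filter and the CPM filter kept each of these counts within 1.5 times the reported one.

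No pairing by replicate number was seen, as the deviations of same-numbered libraries correlated at -0.203 to -0.064 and those of other numbers at -0.098 to 0.211. With 4 libraries per group these correlations cannot exclude a pairing. With the replicate number as a block 231 genes were called in female cKO glands (111 higher, 120 lower), 8 differed in age change, and 17 were called in males. Of the log2 fold changes of 93 genes set out individually, under the 14 alternatives each, 1065 kept their side of the threshold, 211 no longer passed it and 19 newly passed it. None of the called genes took the other sign under an alternative, while 7 genes that were not called did so in 16 values (to 2 decimals), Gpnmb between -0.53 and 1.33 against -0.21 as reported.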
